A study of Mus musculus with 5 samples.

Results

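Heat shock proteins are molecular chaperones that keep other proteins folded, and the transcripts of 10 of them were examined in hepatic iNKT (invariant natural killer T) cells of mice, which are T cells whose receptor reads lipids bound to CD1d. The 10 genes were picked by symbol from the 55364 rows of each count table, and all 10 had exactly 1 row. They were Hspa1a, Hspa1b, Hsp90aa1, Hsph1 and Dnajb1, which stress induces strongly, Hspa8, Hsp90ab1 and Dnaja1, which cells express without stress, and Hspd1 and Hspe1. All were proposed as cytosolic chaperones, but Hspd1 and Hspe1 encode the chaperonin and cochaperonin of mitochondria, so they were kept apart from the other 8. Dnaja1 and Hsp90aa1 stand between the classes, since stress also raises Dnaja1 and unstressed cells also express Hsp90aa1.

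All mice were male, wild type and C57BL/6. The HCC mice had been injected once at 15 days of age with 25 mg/kg diethylnitrosamine (DEN), a liver carcinogen, and carried hepatocellular carcinoma (HCC), whereas the healthy mice had been given PBS. Livers were collected at 38 to 42 weeks of age and lymphocytes, enriched on Percoll with red cells lysed in water, were sorted as positive for the PBS57-CD1d tetramer and for TCRb. There were 2 healthy and 3 HCC libraries of 3' mRNA sequencing, with totals of 1718452 to 2224356 counts, and the submitters describe them as from separate mice. The table names of HCC 2 and HCC 3 share a number, and whether these 2 libraries came from separate mice or from 1 cannot be told apart here. If they share a mouse, the p values below rest in part on technical spread.

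In the cytosol, Hsp70 proteins bind exposed hydrophobic stretches of unfolded chains and release them upon ATP turnover. J-domain proteins such as Dnajb1 and Dnaja1 bring clients to Hsp70 and speed its ATP hydrolysis, Hsp110 proteins such as Hsph1 exchange its nucleotide, and Hsp90 takes over clients that are nearly folded, among them kinases of T cell receptor signalling. Under proteotoxic stress the factor HSF1 trimerises, binds heat shock elements, which are alternating GAA and TTC units, and activates the inducible genes.

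Heat shock elements were looked for as letters in RefSeq promoter windows on GRCm38.p6, of 250 bases before to 50 after a transcription start. A pair of units was searched as GAANNTTC or TTCNNGAA and a run of 3 units as GAANNTTCNNGAA or TTCNNGAANNTTC. All 4 patterns read the same on both strands or as each other's reverse complement, and a run always contains pairs. A pair was present in 15.1% and a run in 0.603% of the 32851 windows of all genes. Windows were found for 7 of the 10 genes, not for Hspa8, Hsp90aa1 or Hsp90ab1. A run lay before the start in the window of Hspe1 and in 1 of the 2 windows of Hspd1, whose other window held neither pattern, and after the start in both windows of Hsph1. The windows of Hspa1a and Hspa1b and 1 of the 3 windows of Dnaja1 held a pair only, and the other windows of Dnaja1 and both of Dnajb1 held neither. The stretches below show the elements before the start of the inducible Hsp70 pair, the chaperonin pair, Dnaja1 and Hsph1, 5′ to 3′ on the gene's strand, with the matching letters in capitals. For Hsph1 this is a pair, and its run after the start is not shown. The stretches of Hspa1a and Hspa1b lie outside annotated exons, and the other 4 overlap the exon of some transcript in GENCODE. Here the start is the RefSeq start of the window. The elements shown for Dnaja1, Hspd1 and Hsph1 lie within the bounds that GENCODE gives for the same gene.
Hspa1a, chr17:34972227-34972286, minus strand: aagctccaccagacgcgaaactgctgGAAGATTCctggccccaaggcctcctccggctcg
Hspa1b, chr17:34959309-34959368, minus strand: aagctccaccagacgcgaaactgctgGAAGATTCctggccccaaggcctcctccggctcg
Hspe1, chr1:55088053-55088082, plus strand: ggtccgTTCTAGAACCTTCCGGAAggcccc
Hspd1, chr1:55088053-55088082, minus strand: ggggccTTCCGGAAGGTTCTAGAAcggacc
Dnaja1, chr4:40722333-40722362, plus strand: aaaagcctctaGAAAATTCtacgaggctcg
Hsph1, chr5:149636351-149636380, minus strand: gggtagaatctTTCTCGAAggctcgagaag
Hspa1a and Hspa1b carry the same letters over this stretch, and the 250 bases before their starts differ at 3 positions. The head-to-head genes Hspd1 and Hspe1 share 1 element, a series of units over 18 bases that each gene reads from its own strand. A match of letters is a description and was not linked to the levels below.

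Levels are given as CPM, the count over its table's own total times 1000000, and values of single libraries always follow the order healthy 1, healthy 2, HCC 1, HCC 2, HCC 3. Because a 3' library yields reads from the end of each transcript, levels of different genes were compared without dividing by length. The 10 genes together made up 0.0726% and 0.117% of the counts in healthy 1 and 2 and 0.175%, 0.135% and 0.105% in HCC 1, 2 and 3. Hspa8 alone held 40.9 to 46.7% of this sum in the 5 libraries and Hsp90ab1 20.2 to 30.4%. Hspa1a and Hspa1b together held less than any other single gene of the 10 in every library. In the order of the mean over all libraries, Hspa8 and Hsp90ab1 were followed by Hspe1, Dnaja1, Hsp90aa1, Hspd1, Dnajb1, Hsph1, Hspa1b and Hspa1a. In RNA of bulk sorted cells, fewer cells of a type and less RNA per cell cannot be told apart. Within every library Hspa8 lay above Hsp90ab1, while the ranges of Hspe1 and Dnaja1, of Hsp90aa1 and Hspd1, and of Dnajb1 and Hsph1 overlapped.

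**Figure D1:**
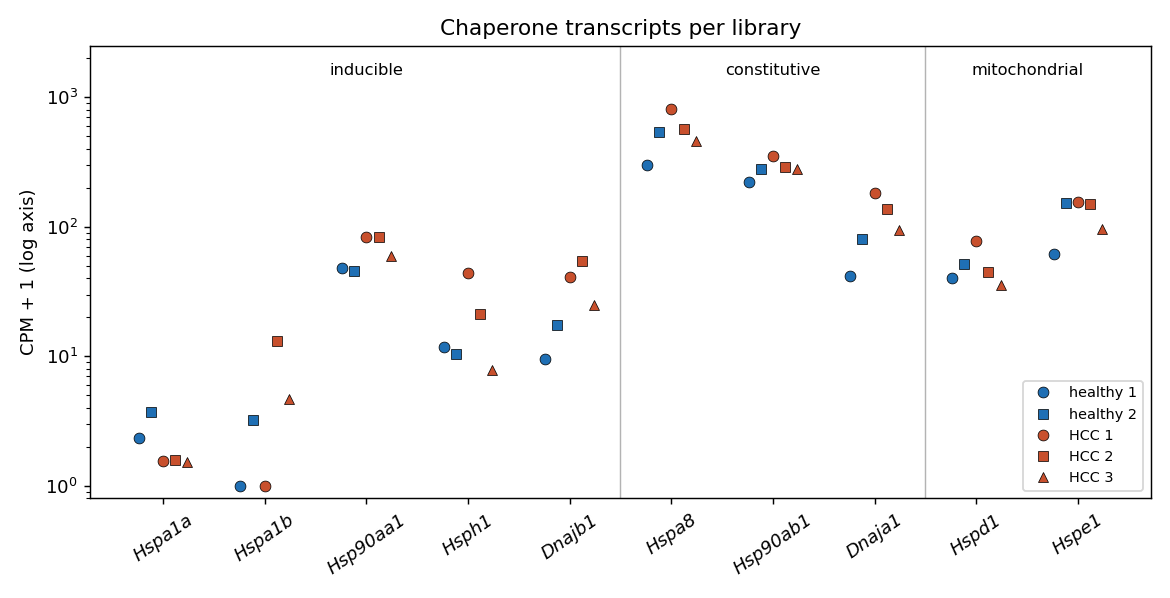
Level of the 10 chaperone transcripts in each library (y axis, CPM plus 1, log axis; blue, healthy; red, HCC; symbols, replicate number). Hspa8 and Hsp90ab1 stand highest, Hspa1a and Hspa1b lie lowest apart from Hspa1b in HCC 2, at 12.2 CPM, and the red symbols of Hsp90aa1, Dnajb1 and Dnaja1 all lie over the blue ones.

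The inducible Hsp70 genes were at the level of a few reads in nearly all libraries. Hspa1a (ENSMUSG00000091971, chromosome 17, 34969190 to 34972156, mm10) had 3 and 5 counts in healthy 1 and 2 and 1 count in each HCC library. Its level was 1.35 and 2.74 CPM among healthy and 0.544, 0.582 and 0.531 CPM among HCC libraries, all of the latter lower, but by 2 to 4 counts. The exact 95% Poisson intervals of all 5 values overlapped, reaching from 0.89 to 6.40 CPM in healthy 2 and up to 3.24 CPM in HCC 2. These intervals cover counting error only, since reads are not separate molecules, and that of healthy 1 takes its counts as reads. Hspa1b (ENSMUSG00000090877, chromosome 17, 34956436 to 34959238), which encodes nearly the same protein, had 0 counts in healthy 1 and HCC 1, which allows up to 1.35 and 1.63 CPM (3 counts). The limit for healthy 1 is too low if its counts had been scaled up. Hspa1b was at 2.2 CPM in healthy 2, 12.2 CPM in HCC 2 and 3.72 CPM in HCC 3. Hence HCC 2, with 21 counts, was the only library in which Hspa1b lay clearly above the level of a few reads, and the groups overlapped. Neither gene passed the filter on low counts, so neither was tested. Their last 300 bases share no 31-base word with each other or with another gene.

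Of the 10 genes, 8 passed the filter and were tested. In edgeR 0 of the 8 were called in either direction (adjusted p under 0.05), and of all 8468 genes tested 0% were called. All 8 had fitted log2 fold changes above 0 in HCC, as had 50.3% of all genes, with a median of 0.46 beside 0.0047 over all genes tested. At an unadjusted p under 0.05 there were 2 of the 8, Dnajb1 and Dnaja1, both higher, where 2.15% of all genes were, or 3.63% counting both directions. limma-voom and DESeq2 also called 0 of the 8 and had 2 at an unadjusted p under 0.05. With quality weights limma-voom called 0 and had 1 at that level. edgeR had 0 of the 8 at that level without healthy 1, without HCC 1 or without HCC 2. A log2 fold change of at least 1 was fitted for 3 of the 8, Dnajb1, Dnaja1 and Hsph1, beside 10.9% of all genes. The HCC group stood entirely above the healthy group in CPM for 3 of the 8, Dnajb1, Dnaja1 and Hsp90aa1, where 12.8% of all genes did, and below for 0 of the 8, where 5.46% did. After TMM scaling, which corrects for the makeup of each library, the count above was again 3, beside 10.6% of all genes, and the count below again 0, beside 8.44%. Without TMM the median of all genes is 0.16, so about this much of a CPM difference on the log2 scale is shared by all genes.

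Dnajb1, the main J-domain partner of inducible Hsp70 (ENSMUSG00000005483, chromosome 8, 83608193 to 83612653), had the largest difference of the 8. Its level was 8.54 and 16.5 CPM among healthy and 39.7, 53.5 and 23.9 CPM among HCC libraries. Every HCC library was thus above both healthy libraries, HCC 3 by the least, with exact Poisson intervals of 17.4 to 32.0 CPM in HCC 3 and 11.1 to 23.5 CPM in healthy 2 that overlap. The means were 12.5 ± 5.60 (SD, n = 2) and 39.0 ± 14.8 CPM (SD, n = 3), 3.12-fold apart. The log2 fold change in edgeR was 1.48 (SE 0.54, 95% interval 0.26 to 2.70), with an unadjusted p of 0.022 and an adjusted p of 0.9998. It lay between 1.20 and 1.88 in the 17 alternatives, and none of them called it. No 31-base word of its last 300 bases occurs in another gene.

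Dnaja1, a J-domain cochaperone of Hspa8 (ENSMUSG00000028410, chromosome 4, 40722150 to 40737149), had the same direction. It was at 40.5 and 79.6 CPM among healthy and 180, 136 and 93.4 CPM among HCC libraries. The groups did not overlap, and HCC 3 lay nearest to healthy 2. Means were 60.03 ± 27.7 (SD, n = 2) and 137 ± 43.4 CPM (SD, n = 3), and the log2 fold change in edgeR was 1.04 (SE 0.43, 95% interval 0.08 to 2.00, unadjusted p = 0.0359, adjusted p = 0.9998). Without healthy 1 it was 0.75 and without healthy 2 it was 1.46. Of the words at its 3' ends 54.3% occur in other genes, mainly in the processed pseudogene Gm15542. The row of Gm15542 was at 5.84 and 59.8 CPM among healthy and 113, 85.0 and 50.4 CPM among HCC libraries, so that here healthy 2 lay above HCC 3. The 3' end of Dnaja1 is also covered by Smu1 on the other strand, whose row held 114 to 142 counts, and whether counting used strand is unknown. With its pseudogene rows added, Dnaja1 had a log2 fold change of 1.11 (SE 0.48) in edgeR, and healthy 2, at 141 CPM, lay just under HCC 3, at 144 CPM.

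The remaining inducible genes differed less evenly. Hsp90aa1, the stress-inducible Hsp90 (ENSMUSG00000021270, chromosome 12, 110690605 to 110702728), was at 46.8 and 45.0 CPM among healthy and 83.3, 83.2 and 58.4 CPM among HCC libraries. All HCC libraries were higher, but after TMM scaling HCC 3, at 59.0 CPM, was close to healthy 1, at 56.9 CPM. The log2 fold change in edgeR was 0.51 (SE 0.40, 95% interval -0.38 to 1.40, adjusted p = 0.9998). Hsph1, an Hsp110 protein (ENSMUSG00000029657, chromosome 5, 149614287 to 149636376), was at 10.8 and 9.33 CPM among healthy and 43.0, 20.4 and 6.90 CPM among HCC libraries. HCC 1 was 6.23-fold above HCC 3, which was the lowest of all libraries, so the groups overlapped. The Poisson intervals of HCC 1 (34.0 to 53.6 CPM) and HCC 3 (3.67 to 11.8 CPM) did not overlap. This spread within the HCC group thus exceeds Poisson error on reads, which is too small where several reads come from 1 molecule. The log2 fold change of Hsph1 in edgeR was 1.01 (SE 0.78) and was 0.19 without HCC 1.

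**Figure D2:**
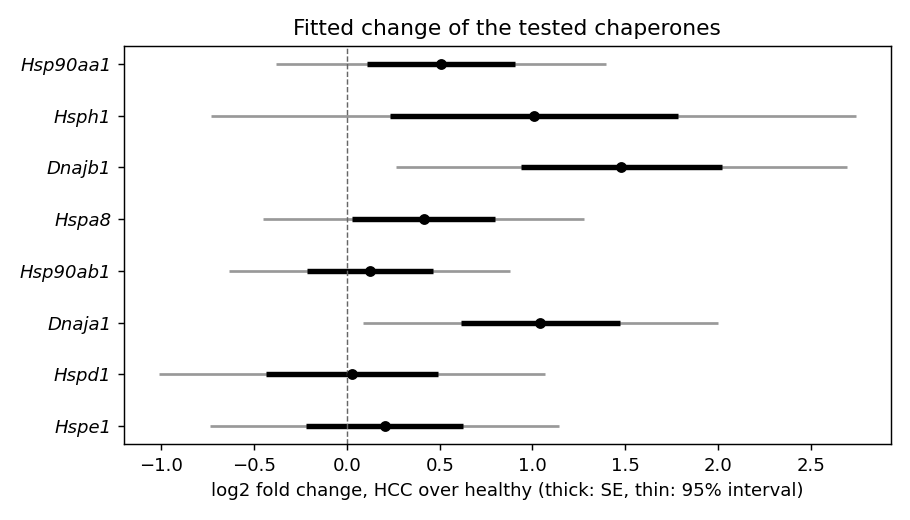
Fitted log2 fold change of the 8 tested chaperones, HCC over healthy (x axis; dot, estimate; thick bar, SE; thin bar, 95% interval before adjustment). The intervals of Dnajb1 (0.26 to 2.70) and Dnaja1 (0.08 to 2.00) lie above 0, and those of the other 6 genes include it.

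Among the constitutive chaperones, Hspa8, the cognate Hsp70 (ENSMUSG00000015656, chromosome 9, 40800984 to 40810087), was the most abundant of the 10 and ranked at 294 of all rows by mean level. It was at 297 and 536 CPM among healthy and 817, 564 and 459 CPM among HCC libraries. HCC 3 lay between the healthy libraries, so the groups overlapped. The log2 fold change in edgeR was 0.41 (SE 0.39, 95% interval -0.45 to 1.28, adjusted p = 0.9998), and it was 0.17 without healthy 1, 0.76 without healthy 2 and 0.14 without HCC 1. Hsp90ab1, the constitutive Hsp90 (ENSMUSG00000023944, chromosome 17, 45567775 to 45573271), varied least. It was at 221 and 279 CPM among healthy and 353, 287 and 278 CPM among HCC libraries, with a log2 fold change of 0.12 (SE 0.34, 95% interval -0.64 to 0.88) in edgeR. Only HCC 1 stood above the rest. The interval includes changes of Hsp90ab1 in both directions. Even larger fitted changes, such as 1.48 for Dnajb1, were not called with these libraries.

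Hspa8 reads could not be assigned as well as those of Dnajb1. Of the words at its 3' ends 81.7% occur in other genes, and 12 pseudogene rows share some of them. The largest of these rows, Gm15459, was at 126 and 208 CPM among healthy and 287, 239 and 205 CPM among HCC libraries, in the same order of libraries as Hspa8. With all pseudogene rows added, Hspa8 had a log2 fold change of 0.38 (SE 0.37) in edgeR. The row of Snord14e, a snoRNA gene that lies within Hspa8 on the same strand, held more counts than Hspa8 itself in each library. It was at 335 and 668 CPM among healthy and 970, 722 and 518 CPM among HCC libraries. The order of libraries was again that of Hspa8, and the log2 fold change was 0.41 (SE 0.40) in edgeR. Reads of 1 transcript may have been counted in both rows, which was not tested. The other snoRNA rows within Hspa8, Snord14c and Snord14d, held between 0 and 22 counts.

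**Figure D3:**
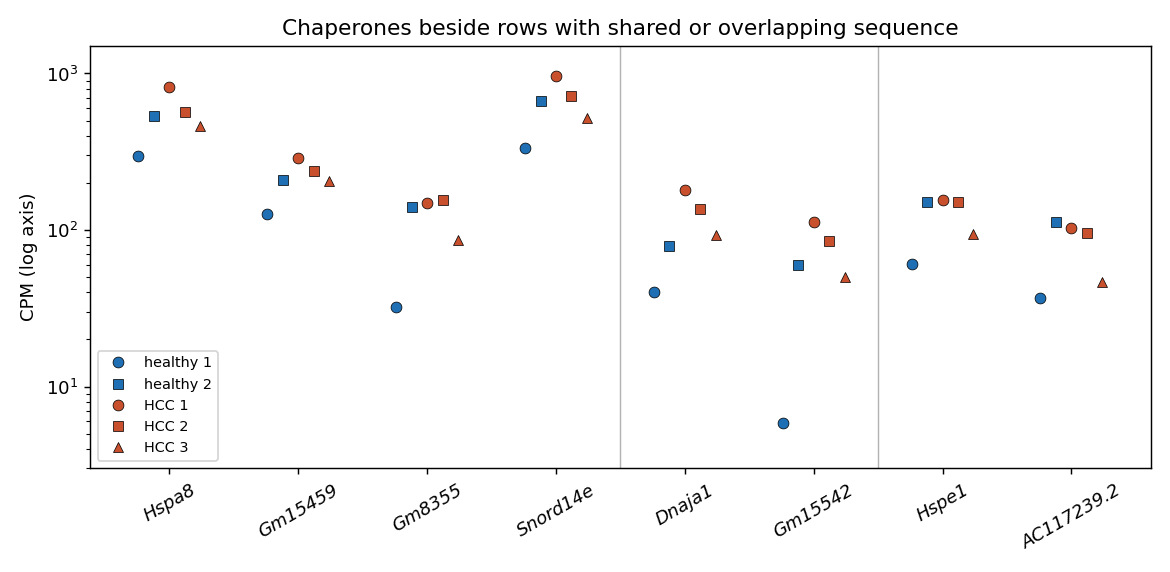
Level of Hspa8, Dnaja1 and Hspe1 beside rows that share their 3' sequence and beside Snord14e, which lies within Hspa8 (y axis, CPM, log axis; blue, healthy; red, HCC; symbols, replicate number). Healthy 1 is the lowest library in all 8 rows, and no row but Dnaja1 separates the groups.

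The mitochondrial pair showed no separation of the groups. Hspd1, the chaperonin (ENSMUSG00000025980, chromosome 1, 55077835 to 55088243), was at 39.6 and 50.5 CPM among healthy and 76.7, 43.6 and 34.5 CPM among HCC libraries, so that HCC held both the highest and the lowest library. Its log2 fold change in edgeR was 0.03 (SE 0.47, 95% interval -1.01 to 1.07), with a sign that turned in some alternatives. Hspe1, its cochaperonin (ENSMUSG00000073676, chromosome 1, 55088132 to 55091307), was at 60.7 and 151 CPM among healthy and 155, 150 and 94.5 CPM among HCC libraries. Healthy 1 was the low library, and without it the log2 fold change of 0.20 (SE 0.42) in edgeR became -0.21. Per 100 counts of its promoter neighbour Hspd1, Hspe1 had 153 and 299 counts among healthy and 202, 344 and 274 among HCC libraries, a ratio whose groups overlapped. Of the 3' words of Hspe1 62.2% occur elsewhere, mainly in AC117239.2, whose row was at 36.9 to 113 CPM, and of those of Hspd1 51.3%.

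Summed by role, the constitutive chaperones outweighed the inducible ones in every library, by 8.28-fold and 11.8-fold in healthy 1 and 2 and by 8.10-fold, 5.81-fold and 8.89-fold in HCC 1, 2 and 3. The summed inducible level was 67.4 and 75.7 CPM among healthy and 167, 170 and 93.4 CPM among HCC libraries, so that the groups did not overlap. Hsp90aa1 was the largest part of this sum in every library. The summed constitutive level was 558 and 895 CPM among healthy and 1350, 988 and 830 CPM among HCC libraries, where HCC 3 lay below healthy 2. The mitochondrial pair summed to 100.3 and 201 CPM against 232, 194 and 129 CPM. No test was made on these sums, and pseudogene rows were left out of them. Such rows held 466 to 914 counts for Hspa8 and 16 to 214 for Dnaja1 over the 5 libraries. They held 9 to 25 counts for Hsp90aa1, and the other inducible genes had no such row. Adding them would thus raise mainly the constitutive sum.

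The ratio of all inducible to all constitutive genes did not separate the groups. There were 12.1 and 8.47 inducible per 100 constitutive counts in healthy 1 and 2 and 12.3, 17.2 and 11.3 in HCC 1, 2 and 3, with HCC 2 the highest and healthy 2 the lowest. On the log2 scale, HCC minus healthy was 0.40, beside a pooled SD of 0.34 within groups. The value depends on which genes are summed. Without Hsp90aa1 in the inducible sum it was 0.78, with 3.70 and 3.44 against 6.17, 8.78 and 4.22 inducible per 100 constitutive counts and no overlap of the groups. Taken as a mean of each gene's own log2 value, in which the scarce Hspa1a and Hspa1b weigh as much as Hsp90aa1, the log2 difference was -0.035. Within the Hsp90 pair, Hsp90aa1 was at 21.2 and 16.1 per 100 Hsp90ab1 in healthy 1 and 2 and at 23.6, 29.0 and 21.0 in HCC 1, 2 and 3, and the groups overlapped. Dnajb1 was at 21.1 and 20.7 per 100 Dnaja1 in healthy 1 and 2 and at 22.1, 39.3 and 25.6 in HCC 1, 2 and 3, so that here the groups did not overlap, HCC 1 being the closest to healthy. This separation depends on leaving out the pseudogene rows of Dnaja1. With them Dnaja1 was at 47.7 and 141 CPM among healthy and 297, 223 and 144 CPM among HCC libraries. Over these levels Dnajb1 in HCC 1 and HCC 3 lay between the healthy libraries, so the groups overlapped.

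**Figure D4:**
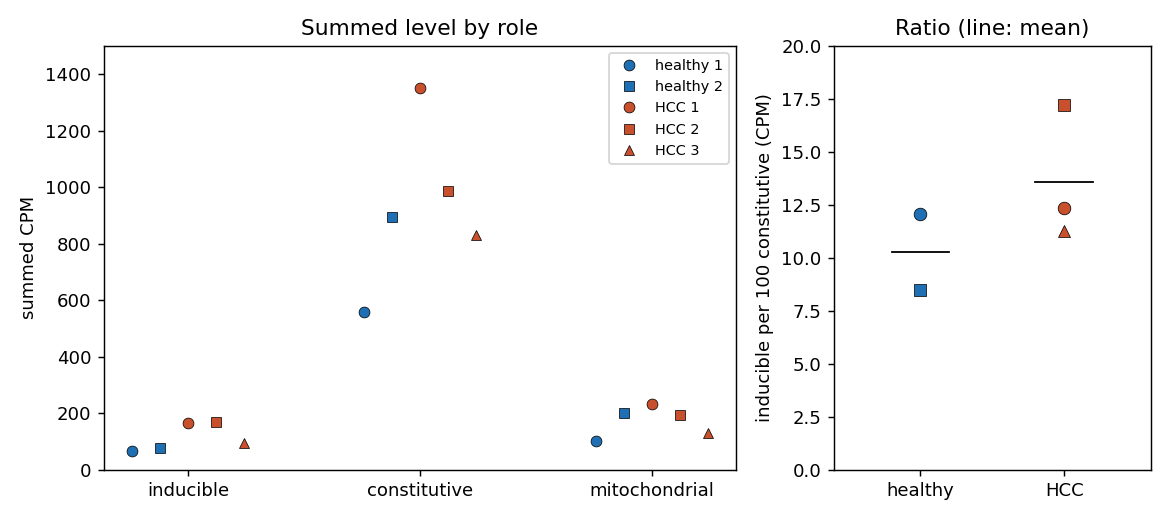
Left, summed level of the inducible, constitutive and mitochondrial genes in each library (y axis, CPM). Right, inducible per 100 constitutive counts (y axis; line, group mean). The inducible sum lies higher in all HCC libraries, whereas the ratio overlaps, with 12.1 in healthy 1 and 11.3 in HCC 3.

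Many of the 8 tested genes shared their highest or lowest library. HCC 1 was the highest library for 7 of the 8 tested genes, the exception being Dnajb1, and was so too after TMM scaling. Healthy 1 was the lowest for 5 of the 8 and for 4 after TMM scaling. The share of all genes with these libraries highest or lowest was not counted. This order can therefore not be called particular to the chaperones. Healthy 1 also stood apart over all genes, with a Pearson r across genes of log2 levels of 0.767 to 0.820 with the other libraries (genes are not independent replicates). The 12 T cell and iNKT markers summed to 5028 to 6483 CPM, whereas Zbtb16, the factor that marks iNKT development, was at 0 to 1.65 CPM. The 10 hepatocyte markers summed to 49.9 and 52.7 CPM in the healthy libraries and to 74.6, 275 and 597 CPM in HCC 1, 2 and 3, with all 8 tested fitted above 0. Their median log2 fold change was 2.96. In edgeR 6 of the 8 were higher at an unadjusted p under 0.05, beside 2.15% of all genes, and 0 were called. The 5 erythroid markers summed to 2975 and 2787 CPM against 7390, 17083 and 15384 CPM, with all 5 fitted above 0. Their median log2 fold change was 2.42, and all 5 were at an unadjusted p under 0.05 in edgeR, with 0 called. Hepatocyte markers were thus lowest among HCC libraries in HCC 1 and highest in HCC 3, and erythroid markers lowest in HCC 1 and highest in HCC 2. Of the chaperones, Dnajb1 and Hspa1b were highest in HCC 2 and the other 7 tested genes in HCC 1. Among markers of the other cell types, Vsig4 (Kupffer cells), Camp and Ngp (neutrophils), Ncr1 and Klra4 (NK cells), and Stab2 and Fcgr2b (endothelium) had no count in any library, and the summed ranges in healthy and HCC libraries were 45.4 to 91.1 and 102 to 169 CPM for 7 B cell markers and 7.68 to 20.2 and 11.1 to 33.8 CPM for 8 macrophage markers. NK cell markers summed to 14.3 to 405 CPM among healthy and 26.2 to 581 CPM among HCC libraries, neutrophil markers to 379 to 527 and 320 to 589 CPM, and endothelial markers to 0 to 0.549 and 1.75 to 3.18 CPM. The neutrophil sum was almost all Mmp9. The NK sum was mostly Klrb1c in all libraries but healthy 2. Klrb1c, which encodes NK1.1 and is also in the T cell and iNKT list, was at 382 and 5.49 CPM among healthy and 465, 20.9 and 333 CPM among HCC libraries, so that healthy 2 and HCC 2 stood apart from the others. The part of such cells in the chaperone levels was not tested.

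Further genes were read from 7 lists of 113 genes, for the wider chaperone network and, with 14 genes, the response to cell dissociation. In edgeR 84 of the 113 were tested, 10 of them from the dissociation list. Of the 84, 0 were called, beside 0% of all genes, with 1 at an unadjusted p under 0.05. DESeq2, limma-voom and limma-voom with quality weights also called 0, with 3, 4 and 2 at an unadjusted p under 0.05. Among regulators and small heat shock proteins only Hsbp1 and Hsf2 passed the filter. Hsbp1, which binds the trimer of HSF1, was at 44.1 ± 26.8 (SD, n = 2) in healthy and 55.3 ± 5.34 CPM (SD, n = 3) in HCC libraries. Hsf2, a sister factor of HSF1, was at 5.84 and 5.49 CPM among healthy and 4.90, 0 and 0 CPM among HCC libraries (log2 fold change -1.93, SE 1.69). All HCC libraries were lower, but HCC 1 was close to healthy 2. The counts of 0 in HCC 2 and HCC 3 allow up to 1.75 and 1.59 CPM. Hsf1 itself was at 1.35 to 6.53 CPM over the 5 libraries, the small heat shock protein Hspb1 at 0 to 0.582 CPM, and Cryab, Hspb2, Hspb3 and Hspb7 had no count. Bag3, a cochaperone that HSF1 induces, was at 0 to 4.39 CPM. None of Hsf1, Hspb1 and Bag3 passed the filter on low counts.

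For other Hsp70 and Hsp110 genes, all 6 tested had fitted log2 fold changes above 0, with a median of 0.79. For 3 of the 6 the groups did not overlap in CPM, HCC being above, as for 12.8% of all genes. Hspa9, the mitochondrial Hsp70, was at 14.4 and 42.3 CPM among healthy and 76.2, 55.3 and 46.7 CPM among HCC libraries (log2 fold change 0.96, SE 0.51). Hspa5, the Hsp70 of the endoplasmic reticulum, was at 467 ± 90.2 (SD, n = 2) and 595 ± 79.1 CPM (SD, n = 3), with a log2 fold change of 0.19 (SE 0.34). The median of this list was 0.30 without healthy 1 and 1.61 without healthy 2.

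The list of other Hsp90 genes and their cochaperones also had a median above 0. Of its 17 tested genes 15 had fitted values above 0 (median log2 fold change 0.44), and the HCC group lay above the healthy group for 8 in CPM, beside 12.8% of all genes, and for 6 after TMM scaling, beside 10.6%. Fkbp4, an immunophilin that binds Hsp90, was at 75.5 ± 15.9 (SD, n = 2) and 104 ± 28.4 CPM (SD, n = 3). Cdc37, which loads kinases onto Hsp90, was at 161 ± 42.0 (SD, n = 2) and 151 ± 29.6 CPM (SD, n = 3). The median was 0.25 without healthy 1 and 0.91 without healthy 2.

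Other lists were centred near or below 0. Of 25 tested J-domain genes beside Dnajb1 and Dnaja1, 10 had fitted values above 0 (median log2 fold change -0.055, with -0.36 without healthy 1 and 0.48 without healthy 2). In CPM the HCC group lay above the healthy group for 1 of the 25 and below for 2, beside 12.8% and 5.46% of all genes. After TMM scaling it lay above for 1 and below for 5, beside 10.6% and 8.44%. Dnajb6 was at 77.9 ± 45.9 (SD, n = 2) and 102 ± 42.5 CPM (SD, n = 3), and Dnajc8 at 115 ± 62.0 (SD, n = 2) and 72.1 ± 15.7 CPM (SD, n = 3). The only gene of all 7 lists at an unadjusted p under 0.05 was Dnajc15, named after its values were seen, a J-domain protein of the inner mitochondrial membrane that was lower in all HCC libraries (log2 fold change -1.28, SE 0.44). Nucleotide exchange factors and other Hsp70 cochaperones had 3 of 10 above 0 (median -0.35). The HCC group lay above the healthy group in CPM for 1 of the 10 and below for 0, and after TMM scaling for 0 and 0. Bag1 was at 193 and 53.8 CPM among healthy and 100.1, 69.8 and 87.0 CPM among HCC libraries, and without healthy 1 the median of its list was 0.35. Sgta, which hands clients between Hsp70 and other factors, was at 66.0 ± 38.2 (SD, n = 2) and 47.6 ± 9.85 CPM (SD, n = 3). The cytosolic chaperonin TRiC, which folds actin and tubulin, with prefoldin had 7 of 14 above 0 (median 0.023), with Cct7 at 323 ± 18.6 (SD, n = 2) and 344 ± 47.9 CPM (SD, n = 3) and the prefoldin subunit Pfdn5 at 717 ± 282 (SD, n = 2) and 464 ± 53.8 CPM (SD, n = 3). Of these 14 genes the HCC group lay above for 3 and below for 2 in CPM, and after TMM scaling for 1 and 2.

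Genes that cell dissociation is known to induce along with heat shock genes gave a median log2 fold change of 0.57, with 7 of 10 tested above 0 and 4 whose groups did not overlap in CPM, HCC being higher, beside 12.8% of all genes. This median was 0.50 without healthy 1 and 1.43 without healthy 2. Fos was at 0 to 1.16 CPM and Fosb at 0 to 2.12 CPM over the 5 libraries, and Atf3 had no count. None of these passed the filter on low counts. Junb was at 51.2 and 54.3 CPM among healthy and 92.5, 90.8 and 79.6 CPM among HCC libraries, with no overlap of the groups (log2 fold change 0.54, SE 0.37). Jund was at 168 ± 14.1 (SD, n = 2) and 163 ± 31.4 CPM (SD, n = 3). Summed over the 14 listed genes, healthy 1 and 2 held 270.2 and 356 CPM and HCC 1, 2 and 3 421, 437 and 368 CPM. Their part in the levels of Dnajb1 and Dnaja1 was not tested.

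**Figure D5:**
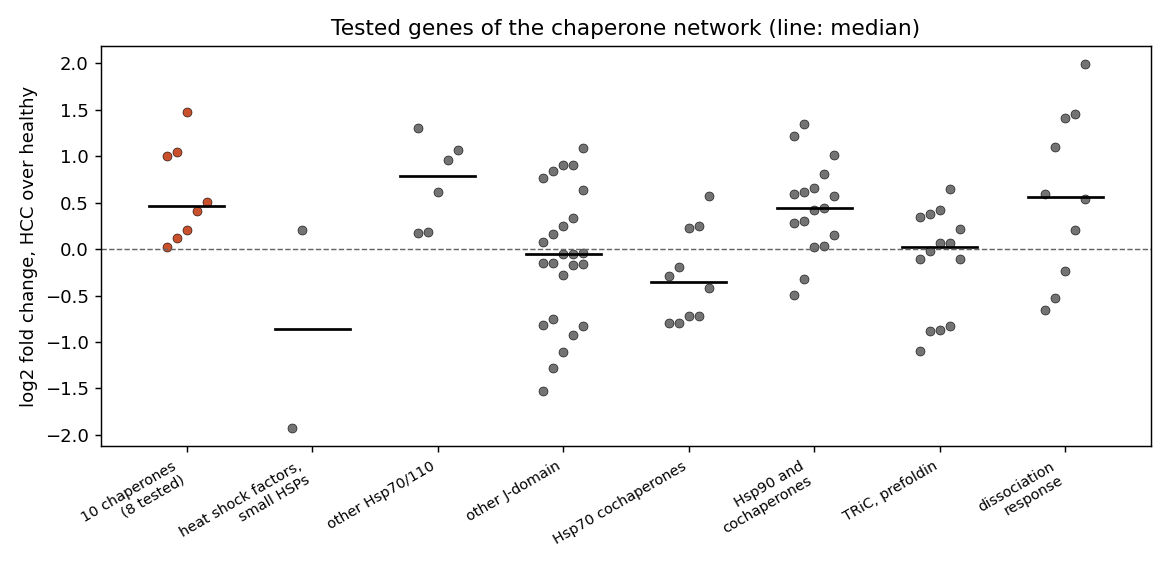
Log2 fold change of each tested gene, HCC over healthy (y axis), for the 8 tested chaperones (red) and 7 lists of the chaperone network and dissociation response (grey; line, median). Medians reach from -0.86, in a list with 2 tested genes, to 0.79 for other Hsp70 and Hsp110 genes, whose median was 0.30 without healthy 1.

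The genes whose course over the 5 libraries lay nearest to the summed inducible chaperones, by the root mean square difference of centred log2(CPM + 1) among 1427 genes with at least 50 CPM, included Tomm70a (0.147) and Pak2 (0.206). Tomm70a, a receptor for proteins entering mitochondria, was at 44.1 and 44.5 CPM among healthy and 84.3, 111 and 62.1 CPM among HCC libraries. Nearest to the summed constitutive chaperones were Nfkbia (0.0836), Pdlim2 (0.118) and Efr3a (0.121). Nfkbia, the inhibitor of NF-kB, was at 84.5 and 160 CPM among healthy and 209, 159 and 128 CPM among HCC libraries, with healthy 1 lowest and HCC 1 highest, as in Hspa8. With 5 libraries many courses resemble each other, and this likeness is a description only.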

How the data were processed

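Each library came with 1 table, deposited by the authors, of whole-number counts for 55364 Ensembl gene IDs. The libraries were made with a QuantSeq 3' kit for Ion Torrent, per the labels' protocols. The counts were taken as raw. In the rows of the 10 genes and those sharing their 3' words, low counts of healthy 1 came in steps of 0, 3, 5, 8, 13, 16 and 19. The other libraries had counts of 1 there. Whether the healthy 1 table was scaled before deposit was not tested. If it was, its total, limits and Poisson intervals do not stand for reads, and its depth in reads is unknown. The filter, spreads, SE and p values of all fits with healthy 1 also take its counts as raw. Programs named in the submitters' processing notes, without roles, are limma, edgeR, DESeq2, DESeq, Bowtie2, HISAT2 and bcl2fastq, and the build is mm10. How reads were counted, on which annotation and strand, is not given in the sources used here. GENCODE M21 gave symbols and positions by gene ID (55104 rows matched). The test was the quasi-likelihood F test of edgeR 4.0.16 under R 4.3.3, HCC against healthy, after filterByExpr by group and TMM scaling, with Benjamini-Hochberg adjustment over 8468 genes and a threshold of 0.05; its code was tested on simulated data. SE values and 95% intervals come from the F statistic. The common biological coefficient of variation was 53.8%. Where a library had a count of 0, the limit given is 3 counts, 1.35 to 1.75 CPM, with counts taken as reads. To see which rows share sequence, the last 300 bases of each coding transcript of the 10 genes were split into 31-base words and looked up in all other GENCODE transcripts. Alternatives used limma 3.58.1 and DESeq2 1.42.0, other scalings, filters and counted rows, a replicate block, HCC 2 and 3 summed, and leaving out each library. The 10 genes and all lists were chosen with earlier results of these data known. Named beside the 10 were the 2 tested genes with the highest mean of each list, any called gene, and the 3 genes nearest in course to each summed level. The value of 1 gene that this rule names is not reported here. Genes named for their scarcity, for sharing reads or for their place in a count were added after their values were seen.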

Additional observations from a re-analysis of the deposited data

How the results depend on the processing

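In all alternatives that tested them, 0 of the 10 chaperones were called, and adjusted p values of Dnajb1 and Dnaja1 went down to 0.136 and 0.114, both without healthy replicate 2, where healthy 1 is left alone and its spread is taken from the HCC group. Dnajb1, Dnaja1, Hsp90aa1, Hsph1, Hspa8 and Hsp90ab1 kept a log2 fold change above 0 in all 17 alternatives. That of Hspd1 turned to -0.057 in limma-voom, -0.033 with protein-coding genes only and ranged from -0.39 without HCC replicate 1 to 0.24 without HCC replicate 3, and that of Hspe1 to -0.21 without healthy replicate 1, its highest being 0.84 without healthy replicate 2. Over all genes edgeR called 0 genes, with 307 at an unadjusted p under 0.05. There were 53 calls with no filter on low counts, 8 in the DESeq2 Wald test, 3 when the replicate number entered as block, and from 0 to 196 when leaving out 1 library, the 196 without healthy replicate 2. The cause of these differences was not tested. With the replicate block, in which HCC 3 has a level of its own and adds nothing, Dnajb1 and Dnaja1 were at 1.73 and 1.24. Same-numbered libraries had correlations of deviations from their group means of -0.00214 and 0.121. With 2 healthy libraries these deviations are mirror images, so this cannot decide whether the number pairs libraries, and pairing is not known. The log2 difference of inducible over constitutive genes, 0.40, was 0.78 without Hsp90aa1 and -0.035 as a mean of the genes' own log2 values, and 0.15 to 0.66 when leaving out 1 library, lowest without healthy replicate 2. The summed mitochondrial level gave 0.34 on the log2 scale, from -0.17 without healthy replicate 1 to 0.84 without healthy replicate 2. Adding all rows that share at least 10% of a gene's 3' words was chosen after seeing the data, as were the quality weights of limma-voom, and neither called a chaperone. Depth limits Hspa1a and Hspa1b most, at 0 to 21 counts per library.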
